A study of Mus musculus with 9 samples.

Results

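Simple repeats are short units of DNA repeated head to tail, and low-complexity copies are stretches dominated by 1 or 2 bases without a fixed unit. All copies that the deposited repeat table classed as Simple_repeat or Low_complexity were taken, which gave 4751 of 38385 listed repeat copies (12.4%) under 180 names. The 2608 simple repeats carried 170 names, each made of its unit, and were split by whether the letters of the unit held the dinucleotide CG. This gave 310 copies in 37 names with CG and 2298 copies without, and no unit formed a CG at the join of neighbouring units. The 2143 low-complexity copies carried 10 names, which give a base composition and no unit. A number after "dup" tells apart copies of 1 name.

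RNA was measured in mouse embryonic stem cells (ESCs) of 3 lines on days 0, 2 and 4 of induced differentiation toward epiblast-like cells, with 1 library for each line and day. The lines were wild-type J1 cells (WT), Dnmt1-/- cells (1KO), and 1KO cells carrying a transgene for catalytically inactive DNMT1, in which cysteine is exchanged for serine (C1229S) in the catalytic domain, read from the CAG promoter (1KO+1CI). The study established 2 independent 1KO+1CI clones after drug selection. The deposited values of all 1KO+1CI libraries carry the label CI6, and which clone this stands for is not stated in the sources used here. All lines were kept on mouse embryonic fibroblast feeders, which were removed on gelatin before embryoid bodies formed. Dnmt1 was at 74, 80.4 and 48.5 FPKM in WT on days 0, 2 and 4, at 13.7, 17.4 and 12.3 FPKM in 1KO, and at 315, 129 and 158 FPKM in 1KO+1CI. FPKM is a level scaled by the length of the gene or copy and by the fragments of the library. Markers of pluripotent cells (6 of 6 listed in the gene table, among them Pou5f1 and Nanog) summed to 896 to 1710 FPKM. This sum hides opposite changes. In WT on days 0, 2 and 4 the lowest of the 6 was at 30.3, 2.45 and 0.749 FPKM and the highest at 632, 980 and 1010. Epiblast markers summed to 115, 170 and 560 FPKM in WT on these days, 138, 348 and 516 in 1KO, and 119, 368 and 376 in 1KO+1CI. Primitive endoderm markers summed to 2.74 to 20.1 FPKM. Markers of feeder fibroblasts summed to 89.4, 171 and 192 FPKM on day 0 in WT, 1KO and 1KO+1CI and to 10.3 to 24.3 FPKM later.

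DNMT1 is the enzyme that copies DNA methylation onto the new strand after replication, and its substrate is the CG dinucleotide. A repeat unit with CG therefore offers many methylation sites in a row, while a unit without CG offers none of its own. Simple repeats have no promoter of their own, and RNA over them can come from the gene whose exons, introns or untranslated regions hold them, or from transcription that runs through them.

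The CG names with most copies, the names that the study singled out, and the tandem sequence each name stands for were as follows, written 5′ to 3′ with CG in capitals.
(CGG)n (71 copies listed): CGgCGgCGgCGg
(CCG)n (70 copies listed): cCGcCGcCGcCG
(CCCCG)n (27 copies listed): cccCGcccCGcccCG
(CGGGG)n (27 copies listed): CGgggCGgggCGggg
(CGTG)n (10 copies listed): CGtgCGtgCGtg
(CGTTG)n (1 copy listed): CGttgCGttgCGttg
(CGAAG)n (1 copy listed): CGaagCGaagCGaag
(TTAGGC)n (2 copies listed): ttaggcttaggc
Of the 310 CG copies, 239 had units of G and C alone. (TTAGGC)n has no CG in the unit or at the join. Among units without CG the most frequent were (TG)n with 252 copies, (CA)n with 239, (T)n with 137 and (A)n with 125, followed by (GGA)n and (CAG)n with 96 each. No unit was longer than 6 bases.

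CG units had higher FPKM than the other groups of copies. They had a median of 21.1 to 29.9 FPKM in the 9 libraries, units without CG 7.18 to 8.04 FPKM, low-complexity copies 8.68 to 10.2 FPKM, and the 33634 copies of other classes 1.16 to 1.69 FPKM. Among the latter, the 372 satellite copies were at 5.93 to 13.2 FPKM, above units without CG and low-complexity copies on day 2. FPKM divides by the length of the copy, and 1 read stood for a median of 0.806 FPKM among members in WT on day 0. Every listed copy also had reads in each library. These levels therefore depend on copy length and on the listing, and they do not rank the classes by transcription. In known transcripts, runs of different units lay in different places. In the GENCODE M21 transcripts of 22500 protein-coding genes, 736 genes held a perfect (CGG)n or (CCG)n run of at least 15 bases, and the longest run lay in the 5′ UTR in 67.1% of them and in coding sequence in 31.9%. Runs of (CA)n or (TG)n occurred in 2246 genes and lay in the 3′ UTR in 91.5%, and runs of (A)n or (T)n in 2164 genes, with 89.4% in the 3′ UTR. The table gives no positions for its copies, so a copy could not be placed in a gene directly.

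Few reads stood behind most of these values. The FPKM of 4700 of the 4751 copies (98.9%) fell on whole multiples of 1 step in every library, each step being taken as 1 read, since the unit counted (read or pair) is not given. The median was 11 reads per copy and library (quartiles 5 and 28), 45.6% of the values rested on fewer than 10 reads, and 1155 copies had a single read in at least 1 library. Relative to the WT day 0 library, depth was 0.987 to 1.36, the deepest being 1KO on day 0. No listed copy was at 0 in any library, so copies that are silent in some library are not covered. No filter on low values was applied, and all 4751 copies entered each comparison.

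To ask whether loss of DNMT1 changed RNA over these repeats, the difference of log2(FPKM + 1) between 1KO and WT was taken for every copy on each day. This scale understates changes of low copies. There was no replicate of any line and day, so these differences have no test. Counting intervals cover counting error only, and intervals of a median cover the spread over copies. On day 0 the median difference was -0.13 for CG units, -0.05 for other units, -0.04 for low-complexity copies and -0.10 for repeats outside these classes. On day 2 the 4 medians lay between -0.05 and -0.01. On day 4 CG units were at 0.10, other units at -0.05 and low-complexity copies near 0. CG units were thus slightly lower in 1KO than in WT on day 0 and slightly higher on day 4, but these values depended on the scaling. With libraries scaled by repeats outside these classes, the median of CG units was 0.05 on day 0 and 0.03 on day 4, and with the mean FPKM over copies compared it was 0.04 on both days. The same settings took other units on day 0 to 0.11 and 0.09.

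A log2 difference over 1 in 1KO against WT on day 0 was found for 2.9% of CG units, 8.66% of other units and 7.61% of low-complexity copies, beside 4.9% of all listed copies. A difference under -1 was found for 8.39%, 10.7% and 10.2%, beside 6.82% of all copies. On day 2 the shares over 1 were 6.77% of CG units and 9.36% of other units (5.74% of all), and the shares under -1 were 5.16% and 10.6% (5.09% of all). On day 4 they were 6.45% and 10.5% over 1 (6.77% of all), and 5.16% and 9.05% under -1 (3.76% of all). CG units, which have more reads per copy, were near the share of all copies on days 2 and 4 and below it upward on day 0, while units without CG were above it in both directions on each day.

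Copies past 1 in either direction went with low read numbers. In 1KO against WT on day 0, 25.6% of the 972 copies with 2 to 9 reads in both libraries together were past a log2 difference of 1 either way, 27.9% of those with 10 to 19 reads, 17.6% with 20 to 49, 10% with 50 to 99 and 3.29% of the 791 copies with 100 or more. The share whose exact 95% counting interval of the ratio left out equal levels ran the other way, from 1.03% to 38.9%. Of the 367 copies with whole reads over 1 the interval left out equality for 155 (42.2%), and of the 489 under -1 for 226 (46.2%). In 1KO+1CI against 1KO on day 2, these numbers were 116 of 357 and 88 of 368. In all 6 comparisons the share past 1 was lowest, and the share with such an interval highest, at 100 or more reads.

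**Figure D1:**
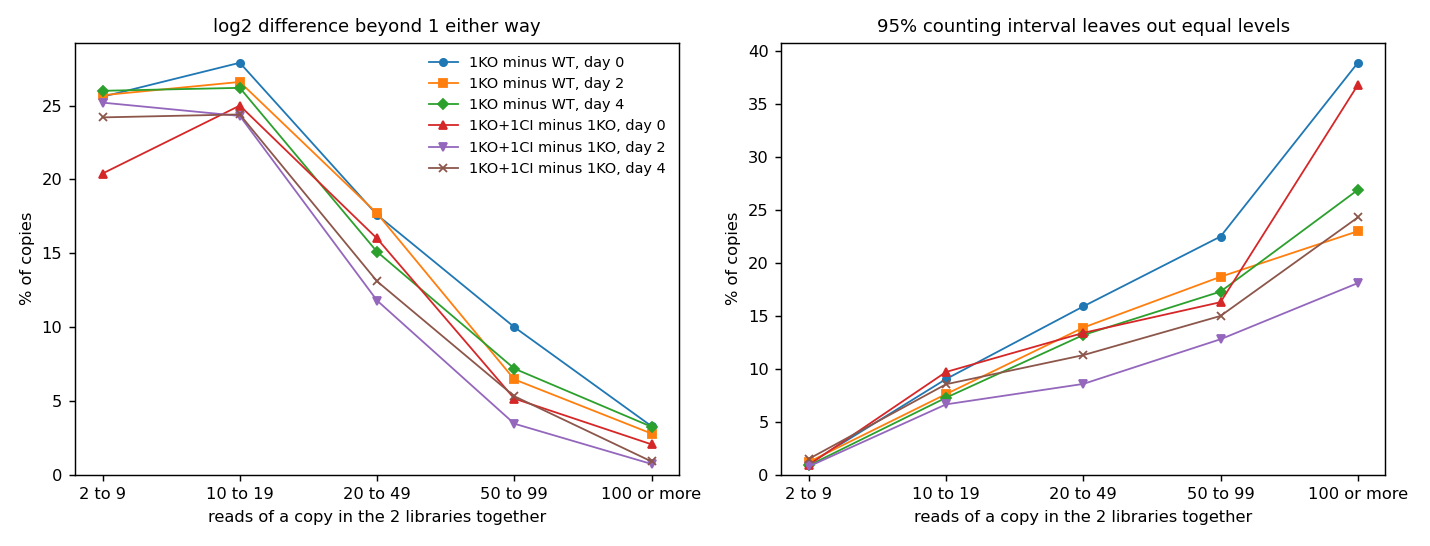
Share of simple-repeat and low-complexity copies (vertical axis, %) by the reads of the copy in both libraries compared (horizontal axis), with 1 line per comparison. At left, copies past a log2(FPKM + 1) difference of 1 fell from between 20.4% and 26% at 2 to 9 reads to between 0.731% and 3.29% at 100 or more. At right, copies whose 95% counting interval left out equal levels rose over the same range.

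To ask whether catalytically inactive DNMT1 moved these repeats from the 1KO level, 1KO+1CI was compared with 1KO. On day 0 CG units had the lower level in 1KO+1CI, with a median difference of -0.31, while other units were at 0.05, low-complexity copies at -0.05 and other repeats at 0.09. The difference was -0.35 for the 145 CG copies with fewer than 50 reads in both libraries and -0.29 for the 157 copies with more, of which 124 were lower and 33 higher. Summed over the 302 CG copies with whole reads, there were 17733 reads in 1KO+1CI and 26636 in 1KO, a ratio of 0.782 after scaling for depth, against 1.02 for other units. On day 2 the medians were 0.02 for CG units and -0.01 for other units, and on day 4 -0.09 and 0.07. The lower level of CG units in 1KO+1CI was thus seen on day 0 and was smaller or turned on the later days. Scaling by repeats outside these classes took the day 0 medians to -0.49 for CG units and -0.12 for other units, so that the sign of the latter, but not of the former, depended on the scaling. A log2 difference over 1 on day 0 was found for 1.94% of CG units and 8.14% of other units (4.57% of all listed copies), and under -1 for 6.13% and 7.22% (3.69% of all). On day 2, 3.23% of CG units were over 1 (3.8% of all) and 4.84% under -1 (3.77% of all), and on day 4 3.87% (3.39% of all) and 5.81% (4.2% of all).

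**Figure D2:**
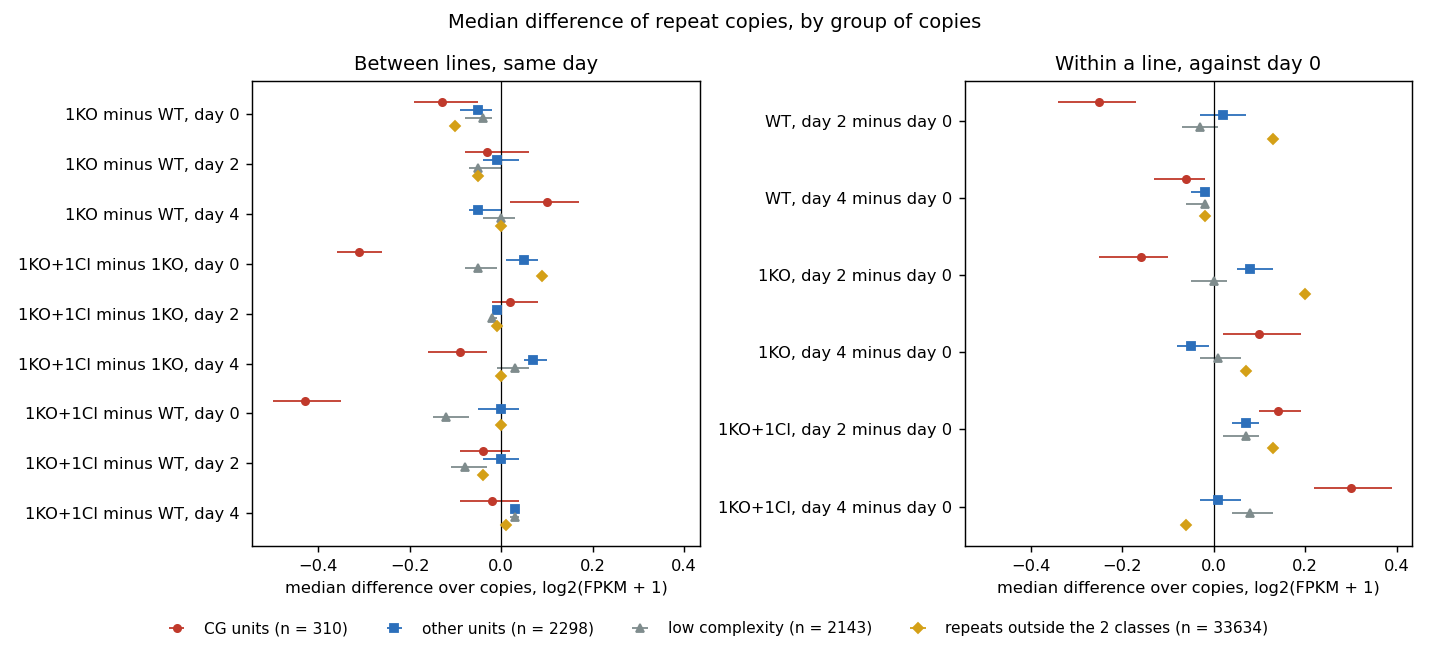
Median difference of log2(FPKM + 1) over copies (horizontal axis) for each comparison between lines (left) and within a line against day 0 (right). Symbols are the 4 groups of copies and bars are 95% order-statistic intervals of the median over copies, which do not measure variation between cultures. CG units stand apart from the other groups in 1KO+1CI minus 1KO on day 0 (-0.31) and in 1KO+1CI minus WT on day 0 (-0.43).

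The CG names did not all move alike. (CCG)n had the lowest median of all names with at least 10 copies in 1KO+1CI minus 1KO on day 0 (-0.37, 59 of 70 copies lower, median 62 FPKM in 1KO and 46.8 in 1KO+1CI), followed by (CGTG)n (-0.33, 6 of 10 lower) and the low-complexity name GC_rich (-0.30, 317 of 457 lower). (CGG)n was at -0.27, whereas (CCCCG)n was at 0.03 and (CGGGG)n at -0.16. The order was different in 1KO minus WT on day 0, where (CGG)n and (CCG)n were at -0.01 and -0.09, and (CCCCG)n and (CGGGG)n at -0.34 and -0.56 (95% intervals over copies -0.79 to 0.01 and -0.92 to -0.03). On days 2 and 4 the latter pair lay between -0.18 and 0.09. Of the names with most copies and no CG, (TG)n and (CA)n were at -0.02 each in 1KO minus WT on day 0, and at 0.04 and 0.05 in 1KO+1CI minus 1KO. (T)n and (A)n were further from 0, at 0.18 and 0.16 in 1KO minus WT.

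Other names at the ends of the order in 1KO minus WT on day 0 were (TCTG)n (-0.76, 12 of 16 copies lower, 9.79 FPKM in WT and 6.06 in 1KO) and (TTCC)n (-0.68, 15 of 19 lower), and at the upper end (TTTTC)n (0.53, 8 of 13 higher), (CAAAAA)n (0.27, 17 of 29 higher) and (CATA)n (0.19). (TCTG)n and (CAAAAA)n kept their sign on days 2 and 4 with smaller medians (-0.30 and -0.12, and 0.18 and 0.13), and the others did not. (TTCC)n was at 0.26 on day 2 and -0.28 on day 4, and (TTTTC)n at -0.29 and -0.10, and (CATA)n at -0.08 and -0.11. In 1KO+1CI minus 1KO on day 0 the highest medians were those of (TTCC)n (0.39), (CAGA)n (0.35) and (TCTCTG)n (0.25, 9 of 10 higher). Among the low-complexity names, GC_rich (-0.30), G-rich (-0.16), AT_rich (-0.12) and C-rich (-0.06) were below 0 in this comparison, and GA-rich (0.15), T-rich (0.14), A-rich (0.08) and CT-rich (0.07) above. In 1KO minus WT on day 0 these 8 names lay between -0.10 and 0. The polypurine and polypyrimidine names have 8 and 5 copies.

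Names that are each other's reverse complement, such as (CA)n and (TG)n, can mark the same kind of tract on opposite strands. There were 16 such pairs with at least 20 copies of each name. Their medians in 1KO+1CI minus 1KO on day 0 differed by 0.12 within the middle pair and by at most 0.35 ((CAAA)n and (TTTG)n), and had the same sign in 10 pairs. (CCG)n and (CGG)n were both lower, at -0.37 and -0.27. (A)n and (T)n moved alike in both comparisons, with 0.16 and 0.18 in 1KO minus WT on day 0 and -0.14 and -0.11 in 1KO+1CI minus 1KO. The medians of (GGA)n were 0.03 and 0.03 in these comparisons, and those of (CAG)n -0.09 and 0.02.

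Nearly all CG units are also rich in G and C, so the split by CG was set beside the GC content of the unit. In 1KO+1CI minus 1KO on day 0, CG units with 66.7% to 83.3% GC were at -0.25 (67 copies) while units of the same GC without CG were at 0.04 (641 copies). Units of G and C alone were at -0.31 with CG (239 copies) and at -0.14 without CG (49 copies, namely (C)n and (G)n), and GC_rich stretches were at -0.30. At the other end, units of A and T alone were also below 0, at -0.15, and the units between were at 0.04 to 0.10. The gene table moved in the same comparison: for 12005 genes of at least 1 FPKM, the median difference fell with the GC content of the transcripts, from 0.12 at up to 40% GC through 0.02 at 45% to 50% to -0.20 above 60%. On day 2 and day 4 the gene medians in this comparison stayed between -0.03 and 0.06, and CG units at 0.02 and -0.09. The part of GC content in the day 0 difference of CG units was not tested.

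**Figure D3:**
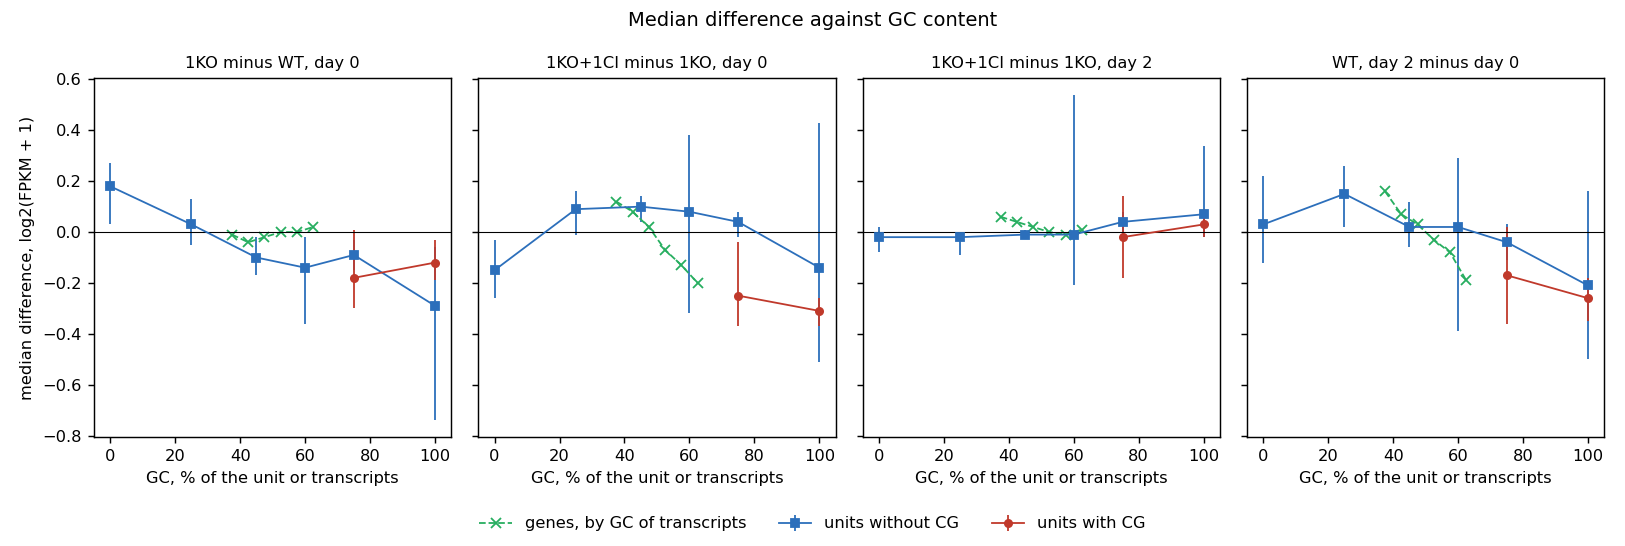
Median difference of log2(FPKM + 1) (vertical axis) against the GC content of the repeat unit or, for genes, of the transcripts (horizontal axis, %), in 4 comparisons, for groups of at least 10 copies. Bars are 95% order-statistic intervals over copies. In 1KO+1CI minus 1KO on day 0 genes fell from 0.12 to -0.20 as GC rose, and units with CG lay at -0.25 and -0.31. On day 2 the medians of the same comparison lay between -0.02 and 0.07.

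Within a line, the medians of CG units between days were of the same size as those between lines. From day 0 to day 2 they were lower in WT (median -0.25) and in 1KO (-0.16) and higher in 1KO+1CI (0.14). Over the same days other units were at 0.02, 0.08 and 0.07. From day 0 to day 4 the median of CG units was -0.06 in WT, 0.10 for 1KO and 0.30 for 1KO+1CI, beside -0.02, -0.05 and 0.01 for other units. With scaling by repeats outside these classes, CG units kept their sign from day 0 to day 2 in WT (-0.50) and 1KO (-0.57) but not in 1KO+1CI (-0.08), and from day 0 to day 4 only in 1KO+1CI (0.43). In WT from day 0 to day 2 the medians of genes again fell with GC, from 0.16 to -0.19, and in 1KO+1CI from day 0 to day 4 they rose, from 0 to 0.17. Genes and CG units did not go together in every comparison. In 1KO from day 0 to day 4 the medians of genes fell with GC from 0.13 to -0.11 while CG units were at 0.10, and in 1KO minus WT on day 0 they stayed between -0.04 and 0.02 while CG units were at -0.13. GC_rich stretches followed CG units with -0.30 in WT and -0.26 in 1KO on day 2 and 0.27 in 1KO+1CI on day 4. The 1KO+1CI library of day 0 was thus the lowest for CG units, at a median of 21.1 FPKM, with 1KO+1CI on day 2 next to it at 21.2 FPKM and WT on day 0 highest at 29.9 FPKM.

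Of the names that the study singled out, 4 copies are listed. The study marked whole repeat families by their levels in ESCs, and its figure legend names no later day. Copies without reads in some library are not listed, and whether the family values rest on these 4 copies was not tested. The names were chosen on these same libraries, so their direction is not independent evidence. (CGTTG)n, a single copy, was covered by 2, 22 and 9 reads on day 0 in the order WT, 1KO, 1KO+1CI (0.762, 6.16 and 2.96 FPKM), 11, 5 and 12 reads on day 2 and 2, 8 and 7 reads on day 4. It was higher in 1KO than in WT on days 0 and 4 and lower on day 2, and the 1KO to WT ratio was 8.08 on day 0 (95% counting interval 1.99 to 70.9), 0.525 on day 2 (0.143 to 1.64) and 3.69 on day 4 (0.736 to 35.7). (CGAAG)n, also a single copy, was read far more often. It stood at 47.8, 92.2 and 54.7 FPKM in WT, 1KO and 1KO+1CI on day 0 (120, 315 and 159 reads), at 22.6, 55.3 and 58 on day 2 and at 48.2, 71.2 and 81.1 on day 4. All 3 libraries of 1KO lay above all 3 of WT, with ratios of 1.93 (1.56 to 2.4), 2.45 (1.82 to 3.33) and 1.48 (1.17 to 1.87). The 1KO+1CI line lay near WT on day 0 (54.7 against 47.8 FPKM). Its ratio to 1KO was 1.05 (0.828 to 1.33) on day 2 and 1.14 (0.932 to 1.39) on day 4, with intervals that held 1.

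Among the lines on day 0, the 2 copies of (TTAGGC)n were highest in 1KO. The copy dup2 was at 12.1, 23.4 and 13.7 FPKM in WT, 1KO and 1KO+1CI on day 0, at 28.3, 20.4 and 15.3 on day 2 and at 14.6, 9.95 and 12.8 on day 4, and the 1KO to WT ratio went from 1.94 (1.17 to 3.32) to 0.72 (0.467 to 1.1) and 0.683 (0.363 to 1.26). The copy dup1 had 5 to 16 reads per library, and its day 0 ratio of 1.68 had an interval of 0.654 to 4.83. It was lower in 1KO than in WT on day 2 (0.723) and higher on day 4 (1.54), with intervals that held 1. In the fit of line and day described next, none of the 4 copies was called for 1KO minus WT (coefficients 0.82, 0.91, 0.25 and -0.02, limma adjusted p 0.628, 0.115, 0.864 and 0.99).

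The unit of vertebrate telomeres, TTAGGG, was represented by 3 listed copies in either orientation. (TTAGGG)n dup2 had 3 to 7 reads per library and (CCCTAA)n dup9 1 to 4 reads. (CCCTAA)n dup30 was at 6.87, 10.9 and 8.67 FPKM in WT, 1KO and 1KO+1CI on day 0, at 10.7, 7.23 and 13.2 on day 2 and at 10.4, 5.75 and 3.75 on day 4. No 1KO to WT ratio of these 3 copies had a counting interval that left out 1 on any day, and (CCCTAA)n dup30 was lower in 1KO+1CI than in WT on day 4 (7 and 20 reads, ratio 0.361, 0.129 to 0.888).

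**Figure D4:**
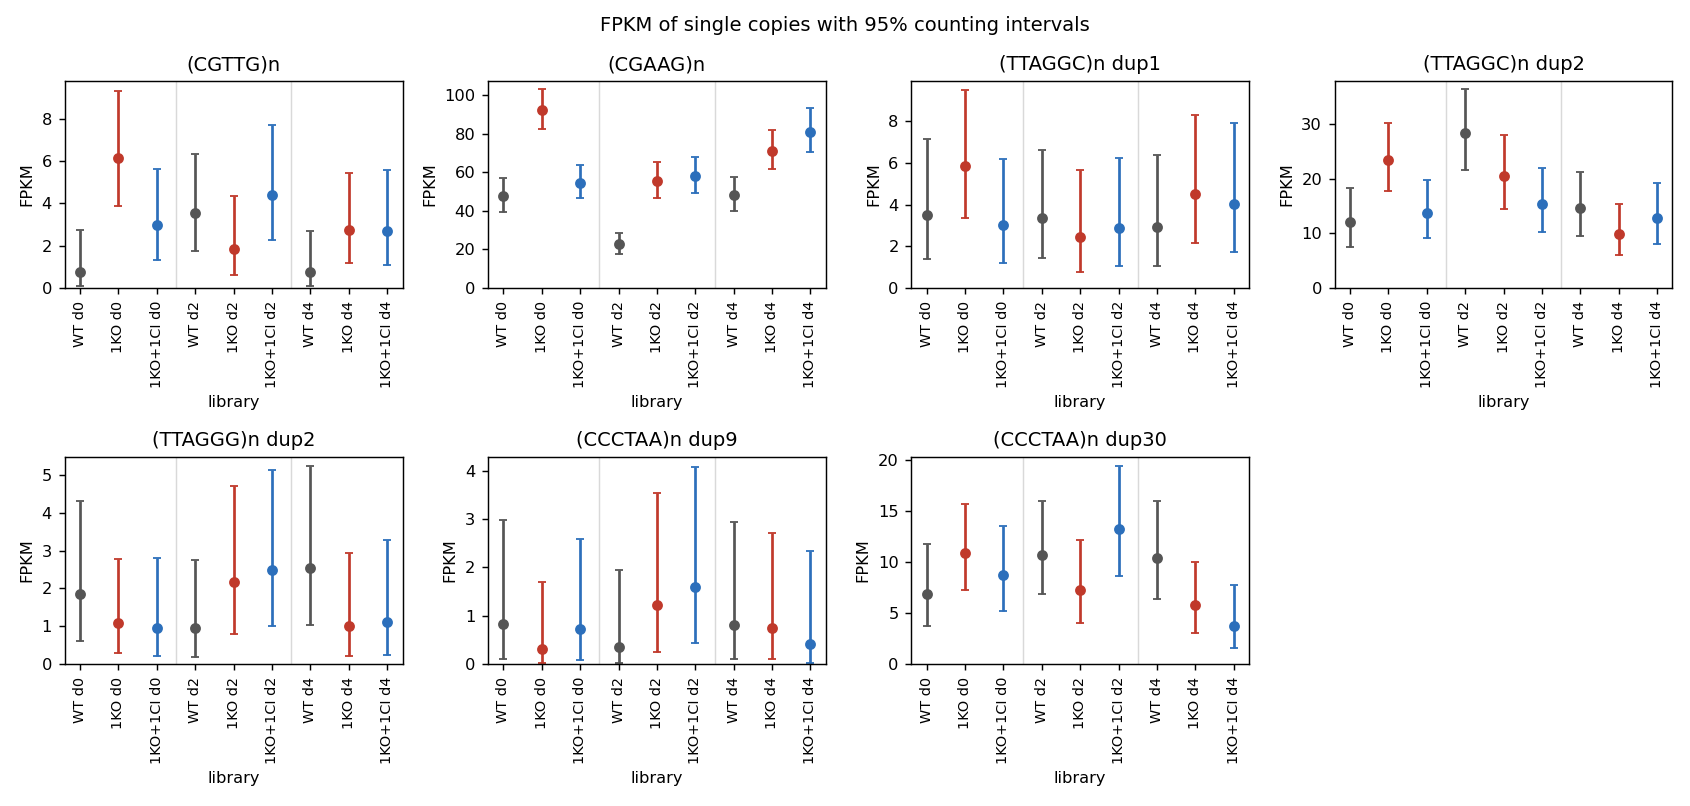
FPKM (vertical axis) of the copies of the names singled out by the study and of the telomere unit in each library (horizontal axis; grey WT, red 1KO, blue 1KO+1CI), with exact 95% counting intervals. (CGAAG)n was higher in 1KO than in WT on every day, and the order of 1KO and WT on day 2 was the reverse of that on day 0 for the other 6 copies.

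To find single copies that differed between lines over all days, log2(FPKM + 1) of all 38385 copies was fitted by limma with line and day as terms, and p was adjusted by the Benjamini-Hochberg method at 0.05 over all copies. With 1 library per line and day the fit has 4 residual degrees of freedom and measures departures from additive effects of line and day, not variation between cultures. For 1KO minus WT, 19 members were higher (1.12% of all listed copies were) and 10 lower (0.0599% of all), together 0.61% of the members beside 1.18% of all copies and 5.2% of the LTR retrotransposons. Of these 29, 16 had units without CG, 13 were low-complexity copies and 0 of the 310 CG units were called (lowest limma adjusted p 0.0998). At an unadjusted limma p under 0.05 were 31 CG units (10%), beside 9.14% of all listed copies. For 1KO+1CI minus 1KO limma called 0 members (lowest adjusted p 0.604) and 2 of all copies (0.00521%). In this contrast 419 members (8.82%) had an unadjusted limma p under 0.05, beside 4.51% of all listed copies. For 1KO+1CI minus WT 21 members were higher (0.727% of all) and 9 lower (0.0625% of all). For 1KO minus WT, 0 of the members were called without the day 0 libraries, 0 without the day 4 libraries and 8 without day 2. Of all listed copies 0, 1 and 285 were called in the same order, beside 452 with all days. Leaving out a day also takes away residual degrees of freedom. These counts therefore cannot tell dependence on a day from the smaller size of the fit. For 1KO+1CI minus WT, 8 members were called without day 0, 3 without day 2 and 4 without day 4, and 7 higher and 1 lower with scaling by repeats outside these classes. Without the variance trend limma called 0 members in either comparison, and without the day term 4 and 3. Without the trend 476 and 603 of the 4751 members had an unadjusted limma p under 0.05, beside 3663 and 3837 of all 38385 copies.

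To see which transcripts these copies resemble, the gene whose log2(FPKM + 1) over the 9 libraries correlated best with a copy was found among 15074 genes, and its GENCODE transcripts were searched for a perfect run of the unit, on either strand and from any base of the unit. The best of many genes has a high Pearson r by selection, so r is given as a description. For 5 of the 29 copies called in 1KO minus WT this gene was Peg10, a gene of retrotransposon origin read from the paternal allele, with r of 0.974 to 0.993. No other gene led for more than 2 copies. Runs of 3 of the units occurred in Peg10 on mm10 chromosome 6, plus strand, shown here 5′ to 3′ with whole units in capitals.
(ATAAG)n, chr6:4759716-4759731, exon 3 of 3, 3′ UTR: gATAAGATAAGATAAG
(CAA)n, chr6:4754277-4754299, exon 2 of 3, coding: CAACAACAACAACAACAACAAca
(CCA)n, chr6:4757175-4757191, exon 3 of 3, coding: CCACCACCACCACCAcc
An ATAAG run of at least 15 bases was held by 1 gene of the table, CCA runs by 1.64% of the genes and CAA runs by 3.15%. A stretch of 44 bases of G and A alone lay in the 3′ UTR at chr6:4757485-4757528, as such stretches of at least 20 bases do in 45.4% of the genes.

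The copies that resemble Peg10 share its pattern by the way they were grouped, so their values are given as a description. (ATAAG)n dup1 was at 637, 704 and 426 FPKM in WT on days 0, 2 and 4, at 1470, 1690 and 1440 in 1KO and at 1100, 1840 and 2730 in 1KO+1CI. Peg10 itself was at 78.2, 85.9 and 51.1 FPKM in WT, 159, 194 and 184 in 1KO and 116, 239 and 316 in 1KO+1CI. Both were higher in every 1KO and 1KO+1CI library than in any WT library. In the fit, 1KO minus WT was 1.41 ± 0.24 (SE, limma adjusted p 0.019) for (ATAAG)n dup1, 1.77 ± 0.26 for (CAA)n dup15, 1.52 ± 0.30 for (CCA)n dup3, 1.49 ± 0.27 for C-rich dup7 and 1.08 ± 0.23 for GA-rich dup19, with adjusted p of 0.019, 0.0259, 0.0206 and 0.0489 for the latter 4. All 5 were also called in 1KO+1CI minus WT, and (CACCAT)n dup62, most like Peg10 with r of 0.993, was called in that contrast alone (adjusted p 0.0413, and 0.0677 for 1KO minus WT). None of them was called between 1KO+1CI and 1KO (limma adjusted p 0.995 each), and 1KO+1CI lay between WT and 1KO on day 0 and above 1KO on days 2 and 4 for each of the 5.

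The largest coefficients for 1KO minus WT belonged to CT-rich stretches. CT-rich dup662 was at 9.06, 9.36 and 22.8 FPKM in WT on days 0, 2 and 4, at 28.5, 52.6 and 263 in 1KO and at 22.2, 21.3 and 320 in 1KO+1CI (coefficient 2.47 ± 0.41 SE, limma adjusted p 0.019). CT-rich dup661 followed with 2.39 ± 0.48 (adjusted p 0.0309), and CT-rich dup663 had 1.74 ± 0.37 (adjusted p 0.0423). The gene most like dup661 and dup662 was Nefm, the medium neurofilament chain, with r of 0.992 and 0.995, and it was second for dup663 (r 0.982, after Glrx with 0.988). Nefm was at 2.83, 3.11 and 7.37 FPKM in WT and 9.47, 17.2 and 102 in 1KO, and its 3′ UTR holds 49 bases of C and T, or of G and A, without a break (chr14:68082835-68082883, minus strand). The third of the largest increases, G-rich dup237, rested on 1 or 2 reads in each WT library against 14, 18 and 9 in 1KO (2.16 ± 0.46, adjusted p 0.045).

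Of the other copies called as higher in 1KO, 3 were picked for the gene most like them, after their values were seen. Those not described elsewhere here were most like Snord17, 2300009A05Rik, Ace, Slc38a10, Plekha8 and Hhex. The 3 therefore do not stand for all called copies, and a theme among the genes was not tested. (CAG)n dup56 was at 20.8, 31.4 and 68 FPKM in WT and 43, 67.6 and 115 in 1KO on days 0, 2 and 4 (0.95 ± 0.19, limma adjusted p 0.0312). It was higher in 1KO on each day, and Snurf, paternally expressed from the Snrpn locus, was most like it (r 0.983). G-rich dup627 was at 1.98, 1.68 and 2.34 FPKM in WT and 6.41, 10.8 and 9.35 in 1KO (1.70 ± 0.32, adjusted p 0.0219) and was most like Peg13, a paternally expressed non-coding RNA (r 0.989). (CAG)n dup63 went with Scml2, a germline Polycomb protein gene (r 0.986), at 3.42, 5.21 and 3.37 FPKM in WT and 14.1, 12.7 and 14.9 in 1KO (1.59 ± 0.28, adjusted p 0.0192). In WT on days 0, 2 and 4, G-rich dup627 rested on 5, 5 and 6 reads and (CAG)n dup63 on 5, 9 and 5. No run of the CAG unit was found in the transcripts of Snurf or Scml2, and no run was searched for stretches named for a single base.

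Copies called as lower in 1KO had few reads for the most part. Several of those called as higher did too, such as (TCC)n dup189 with 2, 1 and 1 reads in WT on days 0, 2 and 4. The 3 largest decreases were those of GC_rich dup557 (-1.76 ± 0.31, limma adjusted p 0.0198), (CAAAA)n dup9 (-1.71 ± 0.37, adjusted p 0.0437) and (TCC)n dup218 (-1.65 ± 0.32, adjusted p 0.0246), with 1 to 22 reads per library in these lines. Better read was (TG)n dup7695, at 35.8, 10.1 and 13.2 FPKM in WT on days 0, 2 and 4, 16.5, 2.19 and 3.38 in 1KO and 20.6, 4.32 and 5.29 in 1KO+1CI (-1.52 ± 0.27, adjusted p 0.0198). It was most like Igf2, a paternally expressed growth factor (r 0.988), which was at 49.6, 11.2 and 16.7 FPKM in WT and 22, 3.78 and 3.3 in 1KO. On each day both were highest in WT. The 3′ UTR of Igf2 holds a run of 36 bases at chr7:142652937-142652972 (minus strand, exon 4 of 4), of which 30 are shown with the reverse complement of the TG unit in capitals.
(TG)n, Igf2: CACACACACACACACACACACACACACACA
Such runs are common and occur in 17.3% of the genes.

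**Figure D5:**
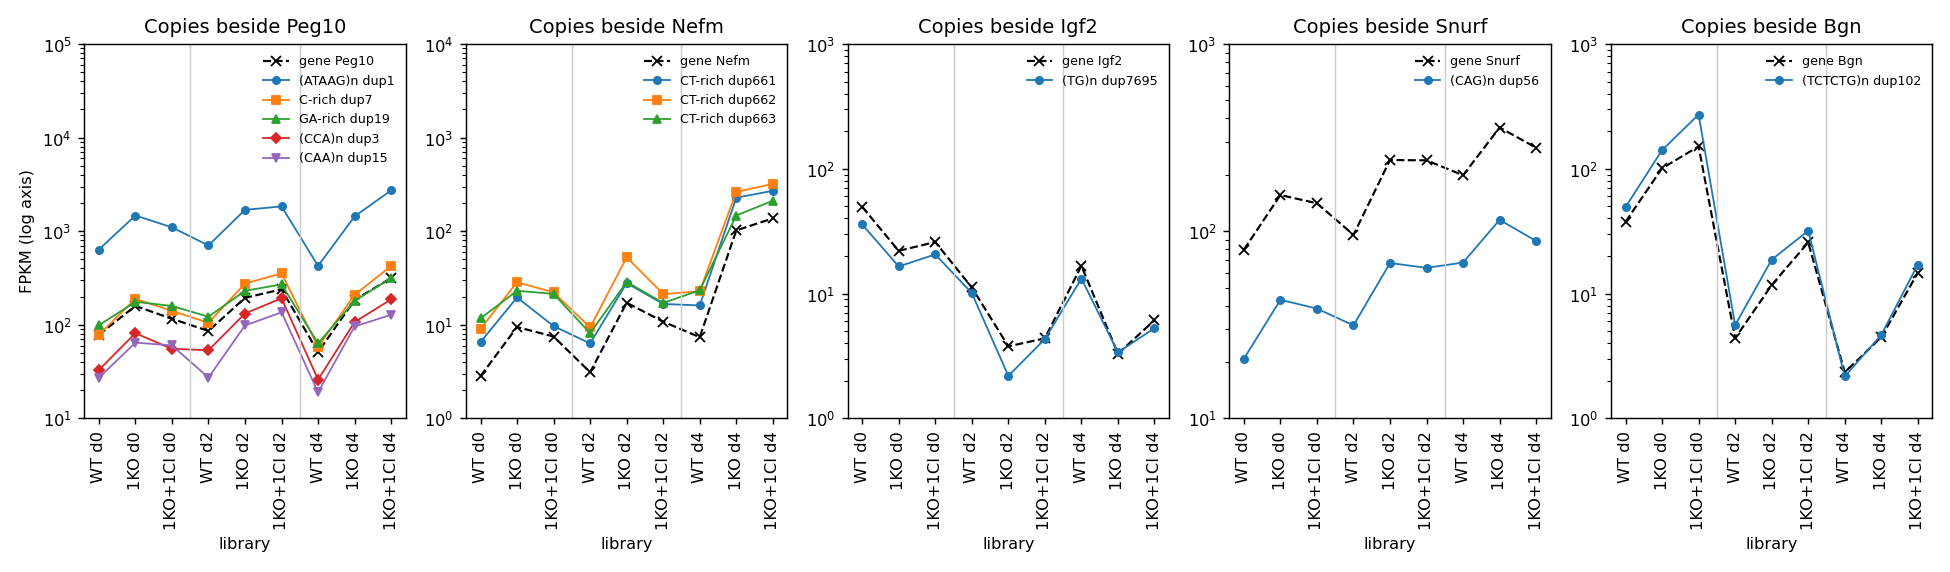
FPKM on a log axis in the 9 libraries, ordered by day and within a day as WT, 1KO and 1KO+1CI, for called copies (coloured) and the gene whose pattern was among the most like them (black, dashed). The 5 copies beside Peg10 and the gene were lower in WT than in 1KO on each day, and (TG)n dup7695 and Igf2 were higher in WT.

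Of the 16 called copies with a unit in 1KO minus WT, the most similar gene held a run of the unit for 6. A run of this kind was held by 3.88% of the genes for the middle copy of the 16. Among the 6, (ATAAG)n dup1, (CCA)n dup3 and (CAA)n dup15 share the gene Peg10. The others, (A)n dup71, (TG)n dup4634 and (TG)n dup7695, have runs that 17.3% of the genes hold. An excess of such genes was not tested. For low-complexity copies with a defined stretch the numbers were 6 of 10 and 39.7%.

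(TCTCTG)n dup102 was the member with the lowest adjusted p in 1KO+1CI minus WT (2.43, limma adjusted p 0.00224) and was also called in 1KO minus WT (1.30 ± 0.24, adjusted p 0.0221). It was at 49.3, 141 and 272 FPKM in WT, 1KO and 1KO+1CI on day 0, 5.59, 18.7 and 31.9 on day 2 and 2.17, 4.67 and 17.1 on day 4. Bgn, a proteoglycan of the extracellular matrix made by fibroblasts, was most like it (r 0.997) and was at 37.6, 101 and 151 FPKM on day 0. All 6 feeder fibroblast markers were detected in every library, and their sum ran in the same order on day 0, at 89.4, 171 and 192 FPKM. The part of feeder cells in this copy was not tested. In these cultures fewer cells of a type and less RNA per cell cannot be told apart.

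The CGAAG copy was most like Dusp9, a phosphatase of MAP kinases (r 0.973), and the CGTTG copy most like Apmap (r 0.910). No run of either unit was found in the transcripts of these genes.

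Between days, more members were called for day 4 than for day 2, each against day 0. For day 4 minus day 0, 49 members were higher (0.43% of all listed copies) and 84 lower (1.04% of all), of which 3 CG units were higher and 3 lower. For day 2 minus day 0, 9 were higher (0.0782% of all) and 10 lower (0.0964% of all), and with scaling by repeats outside these classes 5 were higher and 59 lower. The copies with the largest day 4 coefficients were named after their values were seen. (TG)n dup5023 was at 5.59, 1.76 and 2.07 FPKM on day 0 in WT, 1KO and 1KO+1CI and at 35.3, 71.7 and 45.3 on day 4 (coefficient 3.70, limma adjusted p 0.00442), and the gene most like it was Fgf5, a growth factor of the epiblast (r 0.984), whose 3′ UTR holds a TG run of 39 bases at chr5:98276606-98276644. GA-rich dup655 was at 14.2, 26.3 and 21.1 FPKM on day 0 and 69.9, 283 and 319 on day 4 (3.15, adjusted p 0.000367) and was most like Nefl, the light neurofilament chain (r 0.996). The largest decrease was that of (TCTCTG)n dup102 (-4.18, limma adjusted p 1.9e-05), followed by (CA)n dup2629 (-3.91) and G-rich dup340 (-3.35, limma adjusted p 0.00077). The genes most like the latter 2 copies were Mical2 (r 0.982) and Zscan5b (r 0.976). On day 0 G-rich dup340 was at 24.1, 13.9 and 58 FPKM in WT, 1KO and 1KO+1CI. The feeder marker sum fell over the same days, from 89.4, 171 and 192 FPKM on day 0 to 13, 13.6 and 23.3 on day 4. The part of feeder cells in these decreases was not tested.

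The members with the highest level were not called between lines. CT-rich dup402 was at 5510 to 7660 FPKM over the 9 libraries, (CAT)n dup21 at 2520 to 3760 and (CAT)n dup82 at 2050 to 3460, and their coefficients for 1KO minus WT were -0.01, 0.08 and 0.15, with limma adjusted p of 0.968, 0.865 and 0.73.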

How the data were processed

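Adapters were removed with Trim Galore, HISAT2 placed the reads on mm10, SAMtools changed the file format, and HOMER counted and normalized genes and repeats. Versions, strandedness and the handling of multi-mapped reads: not given in the sources used here. Reads of near-identical copies or overlapping genes may therefore be shared. The values deposited by the authors are FPKM per gene and per repeat copy. Libraries were made from mRNA selected with oligo(dT).

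All 9 libraries were used, 1 per line and day. The split into units with and without CG was read from the names. Members, gene lists and names were chosen with earlier results of these data known. Differences were taken on log2(FPKM + 1), and copies past 1 either way were counted. Over all 38385 copies limma 3.58.1 (R 4.3.3, with a variance trend) fitted line and day. Relative depth and reads per copy were recovered from the steps of the FPKM values, and ratios got exact 95% Clopper-Pearson counting intervals. Both steps were tested on simulated data. The names described were those of the study's repeat figure, the telomere unit, the 5 CG and 5 other names with most copies (a tie at the fifth adds 1), names at the ends of the order on day 0 with at least 10 copies, the 3 largest called coefficients each way and the 3 highest copies. Copies named for their most similar gene, and all named for day 4, were chosen after their values were seen. Of the gene table, 15074 of 15095 entries were used, and transcript GC came from GENCODE M21 (98.8% of the genes of at least 1 FPKM matched). Other analyses used Python 3.11.15, numpy 2.4.6, pandas 2.3.3, scipy 1.17.1 and matplotlib 3.10.9. Entries sharing an identifier (24 members) were kept. Alternatives were another pseudocount, a filter on low values, other scaling, no day term, no variance trend and leaving out each day.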

Additional observations from a re-analysis of the deposited data

Results flagged for a closer look

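In 1KO minus WT and 1KO+1CI minus 1KO, medians of the same group of copies lay on opposite sides of 0 on different days, each with an interval over copies off 0, in 4 cases. These differences between days were not tested. For CG units, 1KO minus WT was 0.10 on day 4 against -0.13 on day 0. For other units, 1KO+1CI minus 1KO was 0.05 on day 0 against -0.01 on day 2, and 0.07 on day 4 against -0.01 on day 2. For all members together, 1KO+1CI minus 1KO was 0.05 on day 4 against -0.01 on day 2. A copy with equal reads in both day 2 libraries falls slightly below 0, since relative depth was 1.024 in 1KO and 1.038 in 1KO+1CI. With at least 50 reads in both libraries together, the -0.01 became 0.02 for all members and 0.04 for other units. The cases that rest on this -0.01 are therefore not shown to be changes of direction between days.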

How the results depend on the processing

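Each library stands alone for its line and day, so medians have no replicate error, and reads per copy limit single values. Of the alternatives run, 171 medians stayed within their interval over copies, 39 counts of calls stayed within 1.5 times, 64 values of single copies kept their sign, 30 medians and 35 counts moved, and 21 medians with an interval off 0 changed sign. With those nearer 0, 28 of the 222 medians changed sign. The cause was not tested.

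Among the medians, 11 changed sign with scaling by repeats outside these classes, 10 with the log2 of the mean FPKM, 5 with at least 50 reads and 2 with scaling by genes. The next values, up to those for scaling by genes, are from scaling by repeats outside these classes. For all members, 1KO minus WT became 0.11 on day 0 and -0.08 on day 4. Their 1KO+1CI minus 1KO became -0.19, -0.02 and 0.10 on days 0, 2 and 4. For CG units, 1KO minus WT became 0.05 on day 0, and 1KO+1CI minus 1KO -0.49 on day 0 and -0.03 on day 4. From day 0, CG units became -0.50 on day 2 and 0.07 on day 4 in WT, -0.57 and -0.0012 in 1KO, and -0.08 and 0.43 in 1KO+1CI. For other units, 1KO minus WT became 0.11 on day 0 and -0.10 on day 4, and 1KO+1CI minus 1KO -0.12, -0.02 and 0.13. From day 0, other units became -0.20 and 0.07 in WT, -0.30 and -0.15 in 1KO, and -0.16 and 0.14 in 1KO+1CI. Scaling by genes gave, for 1KO+1CI minus 1KO on day 2, -0.03 for all members and -0.02 for other units, and from day 0 0.10 for CG units and 0.03 for other units in 1KO+1CI on day 2 and -0.01 for other units in WT on day 4. A pseudocount of 0.1 gave -0.02 for all members and for other units in 1KO+1CI minus 1KO on day 2, and 0.13 for other units on day 4.

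With the log2 of the mean FPKM, 1KO minus WT was 0.05 for all members, 0.04 for CG units and 0.09 for other units on day 0, and 0.04 for all members and 0.10 for other units on day 2. In 1KO+1CI minus 1KO it was 0.01 for all members and 0.02 for other units on day 2, and 0.12 for other units on day 4. From day 0 it was 0.06 for CG units and -0.01 for other units in WT on day 4, 0.01 and -0.12 for other units in 1KO on days 2 and 4, and -0.02 and -0.06 in 1KO+1CI. With at least 50 reads in both libraries, chosen after seeing the data, 1KO minus WT on day 0 was 0.02 for all members and 0.04 for other units, and 1KO+1CI minus 1KO on day 2 was 0.02 and 0.04.

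The libraries of 1 day form a block in the fit. With no replicate block, that is no day term, limma called 4 members and 242 of all copies in 1KO minus WT, 0 of all copies in 1KO+1CI minus 1KO, and 3 and 21 in 1KO+1CI minus WT. Leaving out the libraries of each day in turn gave 0 to 8 members and 0 to 285 of all copies in 1KO minus WT, 0 to 0 of all copies in 1KO+1CI minus 1KO, 3 to 8 members and 13 to 27 of all copies in 1KO+1CI minus WT, and 12 members for day 2 without day 4. Without the variance trend, there were 0 members and 0 of all copies in 1KO minus WT, 0 of all copies in 1KO+1CI minus 1KO, 0 members and 2 of all copies in 1KO+1CI minus WT, and 5 and 59 members for days 2 and 4. Scaling by other repeats gave 8 members and 56 of all copies in 1KO+1CI minus WT, 0 of all copies in 1KO+1CI minus 1KO and 64 members for day 2. A mean of at least 1 FPKM gave 41 members for day 2 and 0 of all copies in 1KO+1CI minus 1KO, and a pseudocount of 0.1 gave 521 of all copies in 1KO+1CI minus WT.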
